A study of Mus musculus with 4 samples.

Results

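The genes described here are 10 early-response and cAMP-responsive genes, taken by symbol from the 31053 genes of the deposited matrices: the orphan nuclear receptors Nr4a1, Nr4a2 and Nr4a3, the zinc-finger factors Egr1, Egr2 and Egr3, and Crem, Sik1, Pde4b and Pde4d. The libraries are single-cell RNA libraries (10x Chromium 3′ v3) of the stromal vascular fraction, which is the cells left after removal of mature adipocytes, of the inguinal fat of C57BL/6 mice aged 8 weeks. In 2 cold libraries the mice had been held at 4 °C for 24 h, and in 2 room temperature libraries they had been held at room temperature for 24 h. The sources used here do not give the value of room temperature, nor how many mice of which sex went into a library. No label says that libraries of a group come from separate animals, so the spread behind every p-value is that between libraries, which may be technical. That spread is in part pooled over genes, so a p-value is not set by the gene's own libraries alone. The depot surrounds the mammary ducts in females, and duct epithelium was present among the cells.

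Nr4a receptors and Egr factors are immediate early genes: they are induced without new protein synthesis by stimuli such as growth factors, antigen receptor signals and cAMP, and their RNAs are short-lived. The Nr4a receptors have no known classical ligand and act mainly through their amount. In the cAMP pathway, protein kinase A phosphorylates the factor CREB, which binds the cAMP response element (CRE) in promoters. Several of the induced genes then damp the signal. Crem encodes CREB-related activators and, from an internal promoter, the repressor ICER. Sik1 encodes a kinase that holds the CREB coactivators (Crtc proteins) in the cytoplasm, and Pde4b and Pde4d encode phosphodiesterases that break down cAMP. Noradrenaline released in fat during cold acts through this pathway in adipocytes, which are not among the cells measured. Tissue dissociation is also known to induce many immediate early genes.

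The promoter windows of the Nr4a receptors and of Egr2 are shown because they hold the sequence elements through which cAMP and serum signals are known to act. Each window runs from 250 bases before to 50 bases after a RefSeq transcription start (build GRCm38.p6) and is written 5′ to 3′ on the gene's own strand. Capitals mark the CRE half-site TGACG in either orientation (CGTCA is its reverse complement) and, in Egr2, also the CArG box, the element bound by serum response factor. The Nr4a1 window is chr15:101266596-101266895 on the plus strand, the Nr4a2 window is chr2:57123954-57124253 on the minus strand, the Nr4a3 window is chr4:48045055-48045354 on the plus strand, and the Egr2 window, 1 of 5 listed for that gene, is chr10:67537619-67537918 on the plus strand.
Nr4a1: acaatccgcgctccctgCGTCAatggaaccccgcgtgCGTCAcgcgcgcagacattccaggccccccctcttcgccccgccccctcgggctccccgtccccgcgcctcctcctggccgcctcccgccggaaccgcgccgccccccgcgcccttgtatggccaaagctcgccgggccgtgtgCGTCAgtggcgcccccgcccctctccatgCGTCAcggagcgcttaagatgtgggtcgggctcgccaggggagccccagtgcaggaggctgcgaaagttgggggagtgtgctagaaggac
Nr4a2: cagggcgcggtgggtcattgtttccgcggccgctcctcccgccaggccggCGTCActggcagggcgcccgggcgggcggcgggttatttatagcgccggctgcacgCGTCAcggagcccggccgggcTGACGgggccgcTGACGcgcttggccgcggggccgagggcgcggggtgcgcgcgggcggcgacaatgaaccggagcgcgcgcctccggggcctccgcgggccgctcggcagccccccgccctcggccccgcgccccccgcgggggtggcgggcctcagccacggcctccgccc
Nr4a3: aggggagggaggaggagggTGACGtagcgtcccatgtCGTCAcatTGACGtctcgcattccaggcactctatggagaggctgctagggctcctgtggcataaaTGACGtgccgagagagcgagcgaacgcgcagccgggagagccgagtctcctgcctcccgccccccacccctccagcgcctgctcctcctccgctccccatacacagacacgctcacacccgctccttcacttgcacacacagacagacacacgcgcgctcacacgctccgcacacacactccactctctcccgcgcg
Egr2: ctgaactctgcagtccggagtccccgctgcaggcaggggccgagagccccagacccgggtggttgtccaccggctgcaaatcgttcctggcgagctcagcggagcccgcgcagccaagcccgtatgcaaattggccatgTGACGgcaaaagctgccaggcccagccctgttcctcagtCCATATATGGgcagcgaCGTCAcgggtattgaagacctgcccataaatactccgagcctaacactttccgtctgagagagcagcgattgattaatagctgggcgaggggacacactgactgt
Each Nr4a window held 4 half-sites, a number reached by 0.231% of the 32851 RefSeq promoter windows of this length, while 20.8% held at least 1. The Egr2 window held 2 half-sites, as 5.01% of all windows did or exceeded, and a CArG box, found in 1.63% of all windows. In the windows listed but not shown, half-sites numbered 0, 0, 2 and 2 for Egr2, 1, 0, 0 and 0 for Pde4b and 0 for Pde4d. A CArG box was in each of these Egr2 windows but the first, and in no window of Pde4b or Pde4d. The last 2 of these Egr2 windows start at chr10:67537620 and chr10:67537680 and overlap the shown window. Their half-sites and CArG box are therefore the same letters as those shown. The full palindrome TGACGTCA, present in 1.79% of all windows, was in none of the windows listed for the 6 members that had an entry (the Nr4a receptors, Egr2, Pde4b and Pde4d). The Nr4a binding element AAAGGTCA was likewise in none of them and is in 1.51% of all windows. A binding element of Egr factors (GCGTGGGCG or GCGGGGGCG, either strand) was found in the Nr4a1 window and in 3.47% of all windows. These matches describe letters and do not show binding.

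The libraries held 3871 to 6339 cell barcodes and 35198164 to 55160902 UMIs each, and pairs of libraries shared 5 to 10 barcodes. After filtering, 15197 cells with library medians of 6746 to 7602 UMIs formed 45 clusters, from which 14 cell classes were named by marker genes. A class name stands for cells that are like that type. Of these, 11 had at least 20 cells in every library and were tested. Raw UMIs were summed per class and library, and levels are given as counts per 1000000 (CPM), the UMIs of a gene in every 1000000 UMIs of the class in that library. Each gene was tested with the edgeR quasi-likelihood test, adjusted over all genes tested in the class by the Benjamini-Hochberg method. A gene is said to have risen or fallen where its adjusted p was under 0.05, and calls are those of edgeR unless DESeq2, run as an alternative, is named. Fold changes are log2 values of cold over room temperature, so that positive values mean higher in cold.

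The 10 genes gave 110 gene-class pairs, of which 97 passed the filter on low counts. Of the 97 pairs, 12 fell and 1 rose in cold. Over all 88143 gene-class pairs tested, 0.602% fell and 0.383% rose. The 13 calls lay in 5 classes and covered 7 members, leaving Nr4a1, Egr1 and Sik1 with no edgeR call in any of the 11 classes (DESeq2 called Nr4a1 and Egr1 in 2 classes each). In T cells, 5 of 10 members fell and 1 rose, where 2.52% of all tested genes fell and 0.887% rose (3.41% in all). In natural killer (NK) cells, 2 of 7 tested members fell, where 0.42% of all genes fell and 0.588% rose (1.01% in all). In macrophages and monocytes, 3 of 10 fell, where 0.355% of all genes fell and 0.109% rose (0.464% in all). In luminal alveolar progenitors, the milk-lineage cells of the duct, 1 of 9 fell, where 0.446% of all genes fell and 1.17% rose (1.61% in all). In fibroblasts and adipose progenitors, 1 of 10 fell, where 1.64% of all genes fell and 1.08% rose (2.72% in all). No member was called in the other 6 classes, which were B cells, type 2 innate lymphoid cells (ILC2), dendritic cells, luminal hormone-sensing cells, vascular endothelial cells and pericytes with smooth muscle cells.

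**Figure D1:**
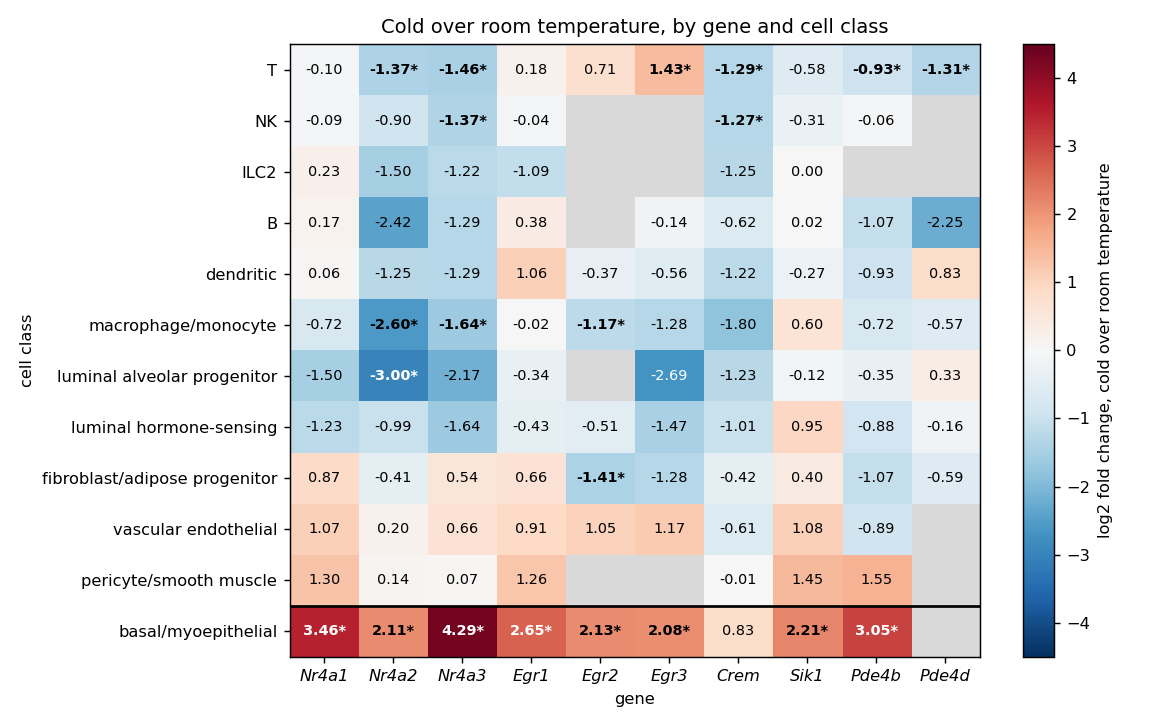
Log2 fold change of cold over room temperature for the 10 genes (columns) in the 11 tested classes and, under the line, in basal/myoepithelial cells, which were tested only with a lower minimum of 15 cells per library. An asterisk marks an adjusted p under 0.05 (edgeR quasi-likelihood test, 2 libraries per group) and grey marks pairs that did not pass the low-count filter. Blue cells dominate the columns of Nr4a2, Nr4a3 and Crem among immune and luminal classes, and the basal row is red.

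In the 6 classes without a member call, edgeR called few or no genes at all. With edgeR, no gene was called in B cells, ILC2, hormone-sensing cells or pericytes, while 519, 205, 927 and 226 genes in that order had an unadjusted p under 0.05. In dendritic cells edgeR called 8 of 8171 genes (0.0857% rose and 0.0122% fell, 0.0979% in all), and in endothelial cells 2 of 9814 (0.0102% in either direction, 0.0204% in all). Members with an unadjusted p under 0.05 are given here with the number over all tested genes in brackets. They numbered 4 of 9 tested in B cells (519 of 8606), 3 of 6 in ILC2 (205 of 1977) and 5 of 10 in dendritic cells (753 of 8171). They numbered 2 of 10 in hormone-sensing cells (927 of 12636), 7 of 9 in endothelial cells (1241 of 9814) and 3 of 7 in pericytes (226 of 3109). DESeq2 called 1 gene each in B cells and ILC2, 2 in pericytes, 43 in hormone-sensing cells, 37 in dendritic cells (0.81% of those with an adjusted p) and 65 in endothelial cells (1.66%). Members were among these in 2 of the 6 classes: Nr4a2, Nr4a3 and Crem as lower and Egr1 as higher in cold dendritic cells, and Egr1 as higher in cold endothelial cells.

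Levels of the nuclear receptors are compared here over the 11 tested classes. Nr4a1 had its highest room temperature level in ILC2, with 1278 and 831 CPM, and its lowest in hormone-sensing cells, with 80.7 and 48.8 CPM. Between these ends, neighbouring classes often overlapped in their room temperature values, as NK cells (397 and 524 CPM), macrophages (402 and 457 CPM) and pericytes (736 and 132 CPM) did. Nr4a2 was highest in NK cells, with 789 and 701 CPM, followed by dendritic cells and ILC2, whose values overlapped. Nr4a3 was highest in dendritic cells, with 328 and 383 CPM, and ILC2, again with overlapping values, and then came NK cells and T cells, which did not overlap each other. Both Nr4a2 and Nr4a3 were lowest in hormone-sensing cells, at no more than 4.79 and 6.70 CPM in a room temperature library. In that class they rested on 13 to 32 and on 7 to 35 UMIs per library.

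**Figure D2:**
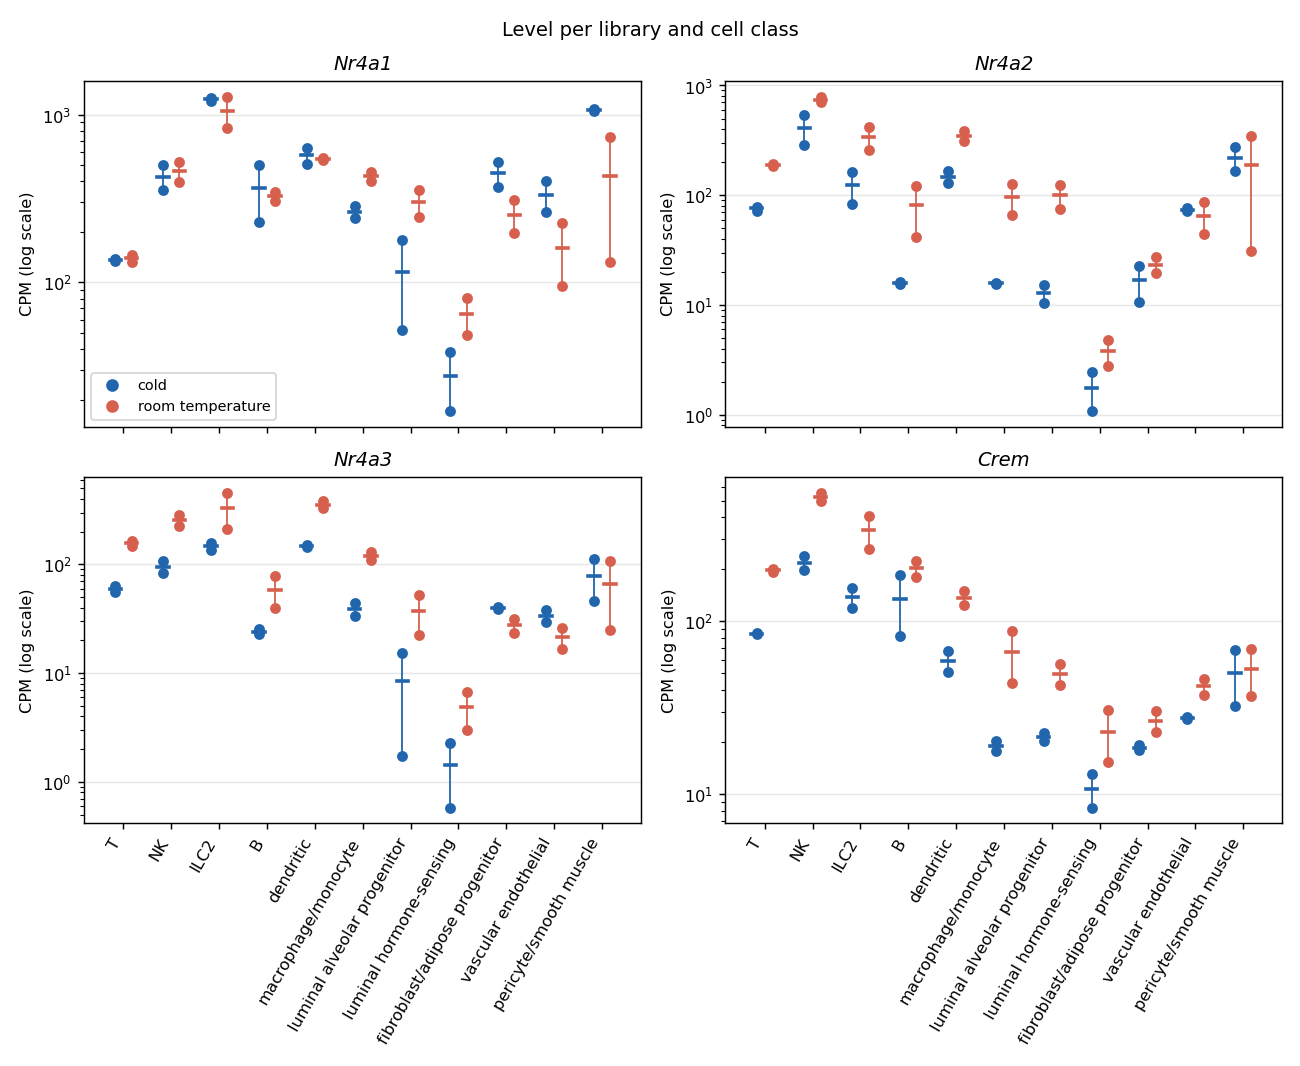
Level of Nr4a1, Nr4a2, Nr4a3 and Crem in CPM on a log axis in each of the 4 libraries, by tested class. Points are libraries, joined by a thin line, short bars are group means, and cold stands left of room temperature. Nr4a2, Nr4a3 and Crem sit lower in both cold libraries in most immune classes and in the alveolar class, while Nr4a1 overlaps between temperatures in T, NK, ILC2, B and dendritic cells.

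Nr4a2 and Nr4a3 fell in T cells, where Nr4a1 overlapped between temperatures. Nr4a2 had 78.9 and 72.6 CPM in cold T cells, against 192 and 183 CPM at room temperature. Nr4a3 had 56.2 and 63.1 CPM in cold T cells, against 165 and 147 CPM at room temperature. The groups did not overlap for either gene, and libraries of a temperature lay close together. The fold changes were -1.37 ± 0.12 for Nr4a2 and -1.46 ± 0.12 for Nr4a3 (SE, n = 2 and 2, edgeR quasi-likelihood adjusted p = 0.00051 for both). Nr4a1, which in T cells is known as a reporter of antigen receptor signalling, had 134 and 139 CPM in cold and 146 and 133 CPM at room temperature, with a fold change of -0.10 ± 0.11. Both falls held in each of 12 alternative analyses. Markers of dendritic cells, which had higher levels of both genes, summed to 426 and 375 CPM in cold T cells, against 723 and 733 CPM at room temperature, with 2 of 7 lower in both cold libraries and none at 0. These markers include Ccr7, which was also a leading gene of a T cell cluster at Leiden resolution 2. Their sum in T cells is therefore not specific to dendritic cells. The part of these markers in the falls was not tested. The share of T cells with a UMI showed the same order with every cell thinned to 2000 UMIs, which left out 57 of 965 and 119 of 542 cold cells and 37 of 442 and 26 of 416 room temperature cells. Nr4a2 was then found in 11.6% and 10.4% of cold T cells, against 29.9% and 24.6% at room temperature (20.9% and 22.0% against 39.4% and 50.2% without thinning, at median depths of 4711 and 6971 against 4008.5 and 7428 UMIs). In hormone-sensing cells, taken as cells that hold little Nr4a2, 0.200% and 1.02% in cold and 0.490% and 0.787% at room temperature had a UMI after thinning, at median depths of 17252.5 to 23032 UMIs.

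The T class holds several clusters whose shares differed between libraries, so the values were also taken within clusters. A cluster led by Dapl1, Cd8b1 and Lef1, genes of naive-type CD8 cells, made up 76.4% and 45.0% of cold T cells and 57.5% and 42.8% at room temperature. In it, Nr4a2 had 73.2 and 72.0 CPM in cold, against 167 and 205 CPM at room temperature, and Nr4a3 had 53.6 and 71.2 CPM in cold, against 166 and 140 CPM at room temperature. In a cluster led by Ly6c2, Nkg7 and Ccl5, genes of cytotoxic memory-type cells, Nr4a3 had 40.1 and 30.9 CPM in cold, against 124 and 138 CPM at room temperature. Neither cluster overlapped between temperatures for Nr4a2 or Nr4a3. In another cluster, led by Tnfrsf4 and Ctla4 with the regulatory T cell factor Foxp3 among its 10 leading genes, the groups overlapped: Nr4a2 had 177 and 221 CPM in cold and 292 and 171 CPM at room temperature, and Nr4a3 had 192 and 225 CPM in cold and 323 and 225 CPM at room temperature. Whether the effect of cold differed between these clusters was not tested.

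**Figure D3:**
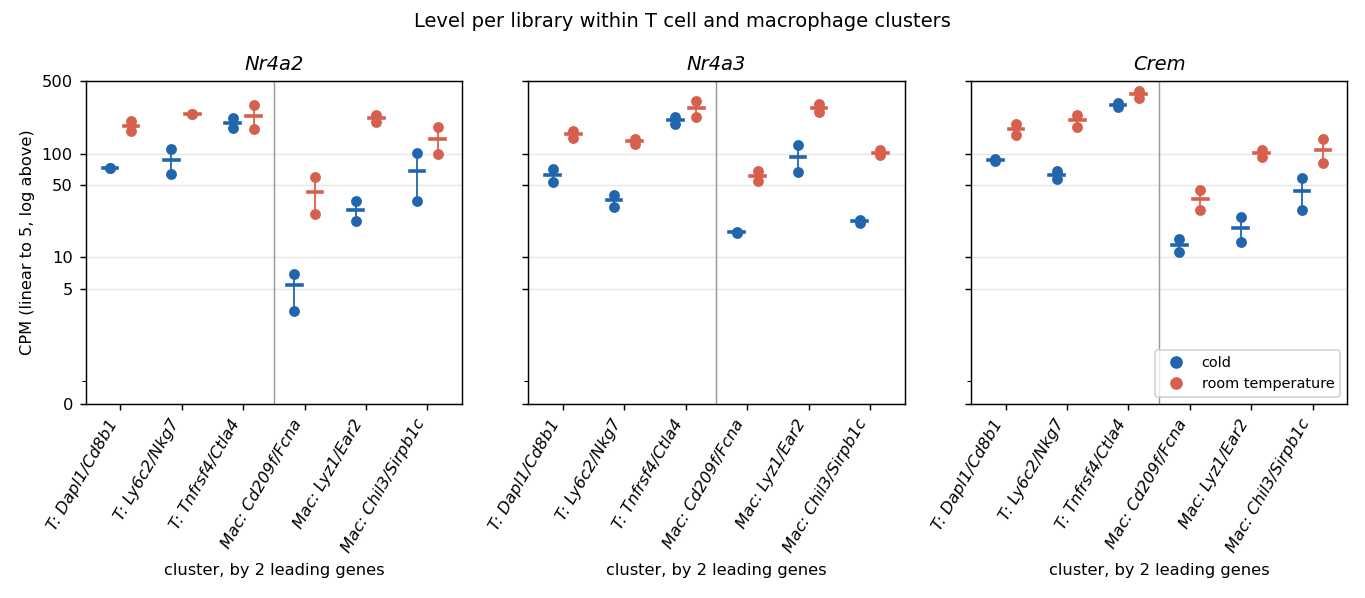
Level of Nr4a2, Nr4a3 and Crem in CPM (axis linear to 5, log above) in each library, within 3 T cell clusters and 3 macrophage clusters with at least 20 cells in every library, each named by its leading genes. Points are libraries, short bars are means, and cold stands left of room temperature. Room temperature libraries lie above cold libraries in the Dapl1 and Ly6c2 clusters of T cells and in the Cd209f and Lyz1 clusters of macrophages, while the temperatures overlap for Nr4a2 and Nr4a3 in the Tnfrsf4 cluster and for Nr4a2 in the Chil3 cluster.

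In NK cells Nr4a3 fell and Nr4a2 missed the threshold. Nr4a3 had 82.7 and 106 CPM in cold NK cells, against 285 and 223 CPM at room temperature, a fold change of -1.37 ± 0.24 (SE, edgeR quasi-likelihood adjusted p = 0.0062), which DESeq2 put just outside the threshold (adjusted p = 0.0566). Nr4a2 had 533 and 287 CPM in cold, against 789 and 701 CPM at room temperature, without overlap but with an adjusted p of 0.0554 (edgeR). In ILC2 and B cells both genes were lower in each cold library than in either room temperature library and passed no threshold. In ILC2, Nr4a2 had 163 and 83.3 CPM in cold, against 421 and 261 CPM at room temperature. In the ILC2 class, markers of mast cells summed to 4848 and 5.95 CPM in cold, against 29931 and 1105 CPM at room temperature, with 1 of 5 lower in both cold libraries and none at 0. In B cells, Nr4a2 had 16.2 and 15.4 CPM in cold, against 42.0 and 122 CPM at room temperature. The cluster led by Iglc2, Cd79a and Fcmr held 95.5% and 67.6% of cold B cells and 86.6% and 51.1% at room temperature, and in it Nr4a2 kept this order while Nr4a3 did not. There Nr4a3 had 26.9 and 25.8 CPM in cold, against 24.9 and 24.6 CPM at room temperature. In the B class, NK markers summed to 1.35 and 42.6 CPM in cold, against 108 and 226 CPM at room temperature, with 5 of 6 lower in both cold libraries. T cell markers in that class overlapped, with 29.7 and 558 CPM in cold and 325 and 1120 CPM at room temperature. The part of these markers in the ILC2 and B cell values was not tested.

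In macrophages and monocytes, where Nr4a receptors are known to restrain inflammatory genes, Nr4a2 and Nr4a3 fell. Nr4a2 had 15.5 and 16 CPM in cold macrophages, against 65.6 and 126 CPM at room temperature. Nr4a3 had 33.5 and 44.3 CPM in cold, against 109 and 130 CPM at room temperature. Neither gene overlapped between temperatures, and the fold changes were -2.60 ± 0.32 for Nr4a2 (SE, n = 2 and 2, edgeR quasi-likelihood adjusted p = 0.0344) and -1.64 ± 0.17 for Nr4a3 (edgeR quasi-likelihood adjusted p = 0.0231). Nr4a1 had 242 and 285 CPM in cold, against 402 and 457 CPM at room temperature, and was not called (-0.72, edgeR quasi-likelihood adjusted p = 0.12). DESeq2 called 6 members as lower in macrophages (all 3 receptors, Egr2, Egr3 and Crem), where it called 2.94% of all genes. With edgeR, the calls of Nr4a2 and Nr4a3 needed both cold libraries. Without cold replicate 1 the fold changes were -2.58 and -1.44 (edgeR quasi-likelihood adjusted p = 0.554 and 0.428), and without cold replicate 2 they were -2.62 and -1.84 (edgeR quasi-likelihood adjusted p = 0.311 and 0.229). Among the 3 macrophage clusters measured, Nr4a3 was lower in both cold libraries in each, and Nr4a2 in 2 of them. In the cluster led by Cd209f, Fcna and Cd163, which held 68.1% and 57.0% of cold macrophages and 68.8% and 35.0% at room temperature, Nr4a2 had 4.02 and 6.87 CPM in cold, against 26.2 and 59.1 CPM at room temperature. In the cluster led by Lyz1 and Ear2 it had 34.7 and 22.4 CPM in cold, against 203 and 238 CPM at room temperature. In the cluster led by Chil3 and Sirpb1c Nr4a2 overlapped, with 101 and 34.6 CPM in cold and 98.4 and 181 CPM at room temperature.

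In dendritic cells edgeR called no member, and the nuclear receptors came closest. Nr4a3 had 144 and 150 CPM in cold, against 328 and 383 CPM at room temperature, with an adjusted p of 0.0531 (edgeR), and Nr4a2 had 131 and 165 CPM in cold, against 314 and 384 CPM at room temperature, with an adjusted p of 0.0955. Neither overlapped between temperatures. Nr4a1 did, with 511 and 633 CPM in cold and 550 and 539 CPM at room temperature.

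In luminal alveolar progenitors Nr4a2 fell, with the largest negative fold change among the 97 tested pairs. It had 10.4 and 15.2 CPM in cold, against 124 and 75.0 CPM at room temperature, from 6 UMIs in each cold library and 48 and 114 UMIs at room temperature. The groups did not overlap, and the fold change was -3.0 ± 0.41 (SE, n = 2 and 2, edgeR quasi-likelihood adjusted p = 0.00194); it passed in all 12 alternatives, at fold changes from -3.42 to -2.29. Nr4a1 had 52.2 and 180 CPM in cold, against 358 and 244 CPM at room temperature (-1.5 ± 0.42, edgeR quasi-likelihood adjusted p = 0.0966). Nr4a3 had 1 and 6 UMIs in cold, or 1.74 and 15.2 CPM, against 51.8 and 22.4 CPM at room temperature (-2.17 ± 0.69, edgeR quasi-likelihood adjusted p = 0.139). Neither passed, although both were lower in each cold library. Cold replicate 1 was the lower cold library for both: without cold replicate 2 both were called, at -2.64 for Nr4a1 and -4.22 for Nr4a3, and without cold replicate 1 they stood at -0.81 and -1.15 with no call. Cold alveolar cells were shallower, with median depths of 3430 and 4036 UMIs per cell, against 9134 and 11906 UMIs at room temperature. After thinning each cell to 2000 UMIs, Nr4a1 was found in 6.67% and 9.43% of cold cells, against 32.4% and 22.0% at room temperature (8.11% and 13.8% against 50% and 49.4% without thinning). Nr4a2 was found in 3.33% and 1.89% of thinned cold cells, against 11.8% and 4.88% at room temperature (2.70% and 6.15% against 42.5% and 21.7% without thinning). For Nr4a3 the thinned shares overlapped, with 0 of 90 cells, which allows a share of up to 3.33%, and 1.89% in cold, and 2.94% and 1.22% at room temperature (0.901% and 3.08% against 15% and 19.3% without thinning). The part of this difference in depth in the class sums was not tested.

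In hormone-sensing cells, which carry the prolactin, oestrogen and progesterone receptors, Nr4a1 had 17.1 and 38.7 CPM in cold, against 80.7 and 48.8 CPM at room temperature. The groups did not overlap, but the fold change of -1.23 ± 0.47 was not called (edgeR quasi-likelihood adjusted p = 0.674). Nr4a2 (-0.99 ± 0.56) and Nr4a3 (-1.64 ± 0.75) were not called either. The class differed in makeup: a cluster led by Defb1, Ido1 and Nrg4 held 94.3% and 74.8% of cold cells and 31.5% and 74.4% at room temperature. Within it, Nr4a1 had 15.6 and 25.8 CPM in cold, against 37.6 and 40.4 CPM at room temperature.

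In fibroblasts and adipose progenitors edgeR called no nuclear receptor, and Nr4a1 and Nr4a3 were higher in both cold libraries. Nr4a1 had 526 and 371 CPM in cold, against 309 and 197 CPM at room temperature, a fold change of 0.87 ± 0.27 that was not called with edgeR (edgeR quasi-likelihood adjusted p = 0.158) and was called with DESeq2 (0.87, adjusted p = 0.0155), which called 3.09% of all genes there. Nr4a3 had 40.7 and 38.8 CPM in cold, against 31.5 and 23.6 CPM at room temperature (0.54 ± 0.18, edgeR quasi-likelihood adjusted p = 0.167). Nr4a2 overlapped, with 22.9 and 10.6 CPM in cold and 27.2 and 19.5 CPM at room temperature (-0.41 ± 0.35). In the largest fibroblast cluster alone, led by Pi16 and Sema3c, the fold changes of Nr4a1 and Nr4a3 were -0.23 and -0.61, the reverse of the class. Over the fibroblast clusters measured, each of these 2 genes was higher in both cold libraries in 1, lower in 1 and overlapping in 3. In vascular endothelial cells Nr4a1 had 262 and 404 CPM in cold, against 227 and 95.1 CPM at room temperature, and in pericytes it had 1050 and 1080 CPM in cold, against 736 and 132 CPM at room temperature. Groups did not overlap in either class and no receptor was called. Both cold libraries also lay above both room temperature libraries for 20.9% of all genes tested in endothelial cells and 17.1% in pericytes. Among pericytes, room temperature replicate 2 was the lowest library for Nr4a1, Nr4a2, Nr4a3 and Egr1. The 7 T cell markers summed to 23.0 and 43.4 CPM in cold pericytes, against 69.9 and 408 CPM at room temperature, and their part in these values was not tested.

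Whether cold acted differently on a class than on fibroblasts was tested as an interaction. In alveolar progenitors minus fibroblasts, 3 of 10 members were lower, where 0.813% of 12054 genes were lower: Nr4a1 (-2.48 ± 0.38, edgeR quasi-likelihood adjusted p = 1.15e-07), Nr4a2 (-2.68 ± 0.50, edgeR quasi-likelihood adjusted p = 4.26e-05) and Nr4a3 (-2.86 ± 0.58, edgeR quasi-likelihood adjusted p = 0.000259). Over all genes of this comparison 1.57% were called. The small p-values there rest largely on a spread pooled over genes. All 3 calls were lost without cold replicate 1, at -1.41, -1.65 and -1.74 (edgeR quasi-likelihood adjusted p = 0.228, 0.753 and 0.637). In macrophages minus fibroblasts, 1 of 10 was lower, where 0.204% of 12760 genes were lower. This was Nr4a3 (-2.15 ± 0.27, edgeR quasi-likelihood adjusted p = 0.0157), also lost without cold replicate 1 (-1.86, edgeR quasi-likelihood adjusted p = 0.243). In hormone-sensing cells minus fibroblasts, edgeR called none of the 10 members and none of 13863 genes, and 1076 genes had an unadjusted p under 0.05; Nr4a1 stood at -2.10 ± 0.50 (edgeR quasi-likelihood adjusted p = 0.396). DESeq2 was not run for these differences. The 3 comparisons share the fibroblast sums and are not independent. The mix of cells in these sums also differed. A fibroblast cluster led by Cxcl13 held 47.0% and 27.3% of the class in cold, against 2.00% and 0.280% at room temperature. The part of this mix in the differences was not tested.

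Among the Egr factors, Egr1 had high room temperature levels in fibroblasts (2070 and 1422 CPM) and macrophages (1603 and 1047 CPM) and low ones in T cells (71.7 and 33.5 CPM) and B cells (76.6 and 35.3 CPM). Most classes between these ends overlapped their neighbours, but dendritic cells lay apart from NK cells, and NK cells from B cells. With edgeR no class gave a call for Egr1, while DESeq2 called it as higher in cold dendritic and endothelial cells. In macrophages it had 1245 and 1398 CPM in cold and 1603 and 1047 CPM at room temperature, a fold change of -0.02 ± 0.22. Its macrophage clusters went opposite ways. In the Cd209f cluster Egr1 had 1430 and 1717 CPM in cold, against 1971 and 2103 CPM at room temperature, and in the Lyz1 cluster it had 973 and 1292 CPM in cold, against 732 and 399 CPM at room temperature. In dendritic cells it had 537 and 617 CPM in cold, against 322 and 227 CPM at room temperature, a fold change of 1.06 ± 0.19 that did not pass (edgeR quasi-likelihood adjusted p = 0.18). In fibroblasts it had 3089 and 2242 CPM in cold, against 2070 and 1422 CPM at room temperature (0.66 ± 0.26, edgeR quasi-likelihood adjusted p = 0.236), and -0.05 in the Pi16 cluster alone. Its values in alveolar (-0.34 ± 0.27) and hormone-sensing cells (-0.43 ± 0.39) overlapped between temperatures.

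Egr2, a factor of myeloid cells, tolerant T cells and Schwann cells, fell in macrophages and in fibroblasts. In macrophages it had 30.8 and 37.6 CPM in cold, against 68.9 and 82.7 CPM at room temperature. The groups did not overlap, and the fold change was -1.17 ± 0.16 (SE, n = 2 and 2, edgeR quasi-likelihood adjusted p = 0.0484). The call was lost without cold replicate 1 (-1.02, edgeR quasi-likelihood adjusted p = 0.628) and without cold replicate 2 (-1.30, edgeR quasi-likelihood adjusted p = 0.311). It was lower in both cold libraries within the Cd209f cluster, with 27.2 and 40.5 CPM in cold, against 69.8 and 128 CPM at room temperature, and within the Lyz1 cluster, with 50.9 and 59.0 CPM in cold, against 91.4 and 87.6 CPM at room temperature.

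In fibroblasts Egr2 had 12.1 and 7.06 CPM in cold, against 24.0 and 32.0 CPM at room temperature, with a fold change of -1.41 ± 0.27 (SE, n = 2 and 2, edgeR quasi-likelihood adjusted p = 0.0476). The call was lost without cold replicate 1 (-1.94, edgeR quasi-likelihood adjusted p = 0.112), without cold replicate 2 (-1.09, edgeR quasi-likelihood adjusted p = 0.0887) and with doublets kept (-1.43, edgeR quasi-likelihood adjusted p = 0.0539). In a cluster led by Postn, Adam12 and Col5a3 Egr2 had 13.9 and 0 CPM in cold, against 72.0 and 91.5 CPM at room temperature. That cluster made up 6.37% and 7.84% of cold fibroblasts and 19.8% and 26.1% at room temperature. In the Gdf10 and Mgp cluster Egr2 was instead higher, with 24.7 and 31.5 CPM in cold, against 13.6 and 8.25 CPM at room temperature. In the other 3 clusters measured the groups overlapped, among them the largest, led by Pi16, with 3.90 and 3.20 CPM in cold and 3.49 and 6.80 CPM at room temperature. A cluster led by Cxcl13 held 47.0% and 27.3% of cold fibroblasts and 2.00% and 0.280% at room temperature, so the mix of cells in the class sums differed.

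**Figure D4:**
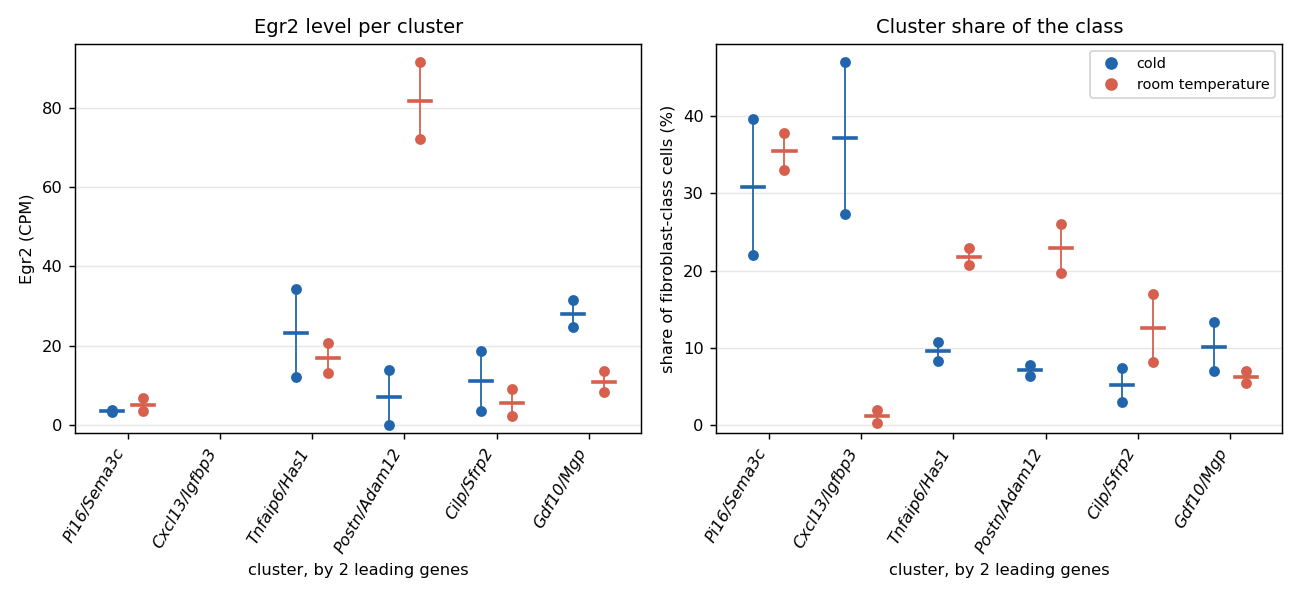
Egr2 level in CPM within fibroblast clusters (left) and the share of each cluster among fibroblast-class cells in percent (right), per library, with each cluster named by its leading genes. Points are libraries, short bars are means, and cold stands left of room temperature; Egr2 is not drawn for the Cxcl13 cluster, which had under 20 cells in a library. Room temperature libraries reach 72.0 and 91.5 CPM in the Postn cluster, and the shares of the Cxcl13 and Postn clusters do not overlap between temperatures.

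Egr3 rose in T cells, on low counts. It had 15.7 and 11.6 CPM (92 and 46 UMIs) in cold T cells, against 5.33 and 4.52 CPM (11 and 15 UMIs) at room temperature. The groups did not overlap, and the fold change was 1.43 ± 0.32 (SE, n = 2 and 2, edgeR quasi-likelihood adjusted p = 0.0415). The call was lost in 5 of 12 alternatives: with DESeq2 (adjusted p = 0.296), with doublets kept (edgeR quasi-likelihood adjusted p = 0.0576), in the largest cluster alone (0.83, edgeR quasi-likelihood adjusted p = 0.319), without cold replicate 1 (1.11, edgeR quasi-likelihood adjusted p = 0.124) and without room temperature replicate 2 (1.33, edgeR quasi-likelihood adjusted p = 0.131). In alveolar progenitors Egr3 had 3.48 and 15.2 CPM (2 and 6 UMIs) in cold, against 88.1 and 31.6 CPM at room temperature, and its fold change of -2.69 ± 0.66 missed the threshold (edgeR quasi-likelihood adjusted p = 0.0601). In fibroblasts (-1.28 ± 0.39) and hormone-sensing cells (-1.47 ± 0.82) it was lower in both cold libraries and not called. Egr2 had a fold change of -0.51 ± 0.55 in hormone-sensing cells, with overlapping groups, and did not pass the count filter in alveolar cells.

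Crem showed the most uniform direction of the 10 genes: its fold change was below 0 in 11 of 11 classes, and in 9 of them both cold libraries lay under both room temperature libraries. Per class, between 17.3% and 29.7% of all tested genes had their cold libraries under their room temperature libraries, and between 17% and 32.6% had them above. Single cases of either order are therefore common. Crem fell in T and NK cells, where 2.52% and 0.42% of genes fell. In T cells it had 85.3 and 84.2 CPM in cold, against 201 and 194 CPM at room temperature, a fold change of -1.29 ± 0.11 (SE, n = 2 and 2, edgeR quasi-likelihood adjusted p = 0.00051). In NK cells, where its room temperature level was highest, it had 239 and 200 CPM in cold, against 554 and 498 CPM at room temperature, a fold change of -1.27 ± 0.19 (edgeR quasi-likelihood adjusted p = 0.00168). In both classes the groups did not overlap, and both calls held in every alternative run. Crem was lower in cold within each of the 3 T cell clusters, including the Tnfrsf4 and Ctla4 cluster, with 304 and 280 CPM in cold, against 403 and 345 CPM at room temperature. Thinned to 2000 UMIs, 15.9% and 16.8% of cold T cells had a Crem UMI, against 31.4% and 34.1% at room temperature (29.2% and 32.1% against 47.7% and 67.8% without thinning), and in hormone-sensing cells 0.998% and 2.86% in cold and 2.70% and 7.87% at room temperature did. The 3′ counts do not separate the repressor ICER from the other Crem transcripts.

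In the other classes edgeR did not call Crem, while DESeq2 called it as lower in cold macrophages and dendritic cells. In macrophages it had 17.8 and 20.5 CPM in cold, against 44.3 and 88.4 CPM at room temperature (-1.80 ± 0.33, edgeR quasi-likelihood adjusted p = 0.102). In dendritic cells it had 51.1 and 67.8 CPM in cold, against 124 and 151 CPM at room temperature (-1.22 ± 0.22, edgeR quasi-likelihood adjusted p = 0.18). In alveolar progenitors it had 22.6 and 20.3 CPM in cold, against 57.0 and 42.8 CPM at room temperature (-1.23 ± 0.37, edgeR quasi-likelihood adjusted p = 0.116). None of these groups overlapped. In hormone-sensing cells (-1.01 ± 0.37) and fibroblasts (-0.42 ± 0.17) the differences were also without overlap and not called, and in pericytes the fold change was -0.01 ± 0.57.

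The phosphodiesterases Pde4b and Pde4d fell in T cells. Pde4b had 63.9 and 48.5 CPM in cold T cells, against 115 and 92.0 CPM at room temperature, a fold change of -0.93 ± 0.17 (SE, n = 2 and 2, edgeR quasi-likelihood adjusted p = 0.0195). Pde4d had 25.9 and 23.9 CPM in cold, against 58.6 and 59.4 CPM at room temperature, a fold change of -1.31 ± 0.15 (edgeR quasi-likelihood adjusted p = 0.00271). Neither overlapped between temperatures, in the class or in any of the 3 T cell clusters measured, and both calls held in all 12 alternatives. Pde4b was also lower in both cold libraries of dendritic cells, with 134 and 132 CPM in cold, against 211 and 291 CPM at room temperature, without a call. Pde4d had its highest level in alveolar progenitors, where it had 240 and 208 CPM in cold, against 143 and 185 CPM at room temperature (0.33 ± 0.25, edgeR quasi-likelihood adjusted p = 0.6). The groups did not overlap, and no other member tested there had a fold change above 0. Pde4b stood at -0.35 ± 0.32 in alveolar cells, -0.88 ± 0.42 in hormone-sensing cells and -1.07 ± 0.64 in fibroblasts, and Pde4d at -0.16 ± 0.20 and -0.59 ± 0.46 in hormone-sensing cells and fibroblasts, with no call.

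Sik1 was called in none of the 11 classes by edgeR or DESeq2, and its fold changes lay on both sides of 0, above in 7 and below in 4. In endothelial cells it had 75.1 and 79.3 CPM in cold, against 33.0 and 40.1 CPM at room temperature, a fold change of 1.08 ± 0.19 that missed the threshold (edgeR quasi-likelihood adjusted p = 0.0991). In hormone-sensing cells it had 77.5 and 75.3 CPM in cold, against 22.4 and 64.2 CPM at room temperature (0.95 ± 0.44), and in fibroblasts 25.7 and 22.8 CPM in cold, against 19.8 and 18.0 CPM at room temperature (0.40 ± 0.16). In those classes groups did not overlap, whereas in alveolar cells they did (-0.12 ± 0.29). In T cells Sik1 went the other way without a call, with 45.0 and 35.7 CPM in cold, against 59.6 and 56.1 CPM at room temperature.

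Basal/myoepithelial cells, the contractile outer layer of the duct, had 26 and 19 cells in cold and 51 and 91 at room temperature, under the minimum of 20 in cold replicate 2. With the minimum lowered to 15 cells, an alternative added after the data were seen, 8 of 9 tested members rose, where 3.5% of 6225 genes rose and 0.546% fell (4.05% in all). In Schwann cells, added by the same change, none of 4 tested members was called with edgeR, where 1.76% of 852 genes rose and 5.52% fell (7.28% in all). In basal cells Nr4a1 had 866 and 645 CPM in cold, against 67.2 and 73.7 CPM at room temperature (3.46 ± 0.25, edgeR quasi-likelihood adjusted p = 6.26e-07). Nr4a3 had 91.3 and 192 CPM in cold, against 6.56 and 7.96 CPM at room temperature (4.29 ± 0.44, edgeR quasi-likelihood adjusted p = 1.33e-05). Nr4a2 had 87.9 and 164 CPM in cold, against 16.4 and 40.8 CPM at room temperature (2.11 ± 0.39, edgeR quasi-likelihood adjusted p = 0.00351). No receptor overlapped between temperatures, and the fold changes of Nr4a2 and Nr4a3 were of opposite sign to those in T cells, macrophages and alveolar progenitors. Egr1 had 2911 and 1803 CPM in cold, against 279 and 494 CPM at room temperature (2.65 ± 0.28), Egr2 rose by 2.13 ± 0.30 and Egr3 by 2.08 ± 0.28. Pde4b had 287 and 297 CPM in cold, against 29.5 and 41.8 CPM at room temperature (3.05 ± 0.26), and Sik1 had 112 and 103 CPM in cold, against 18.0 and 27.9 CPM at room temperature (2.21 ± 0.32). Crem was not called (0.83 ± 0.48, edgeR quasi-likelihood adjusted p = 0.482), and Pde4d did not pass the count filter. The 8 calls held in each of the 8 alternatives that were run for this class.

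**Figure D5:**
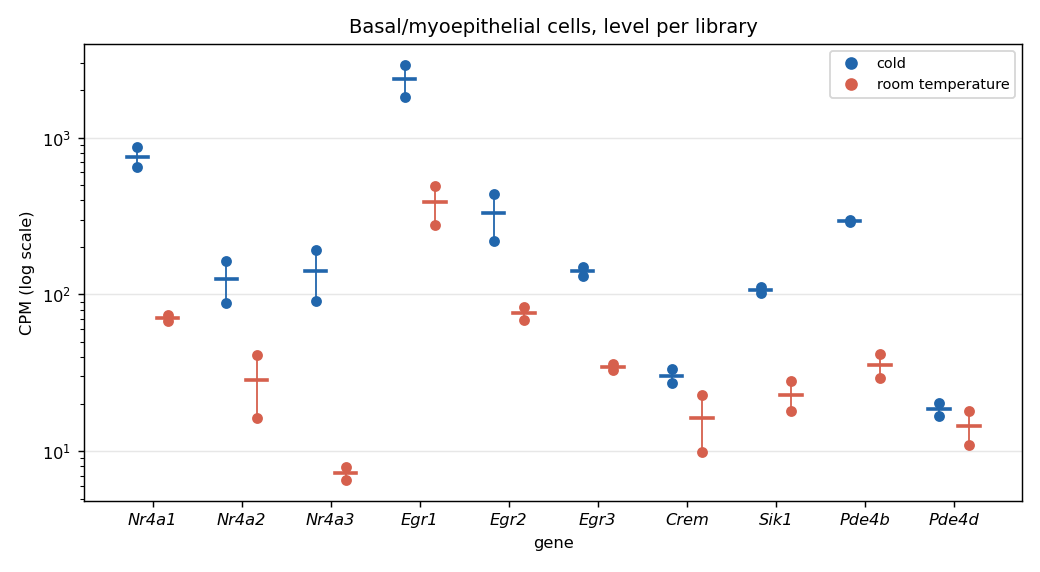
Level of the 10 genes in CPM on a log axis in basal/myoepithelial cells, per library. Points are libraries, short bars are means, and cold stands left of room temperature. Nr4a1 lies at 866 and 645 CPM in cold and at 67.2 and 73.7 CPM at room temperature, and Pde4d is the gene whose groups overlap.

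These basal sums rest on few cells of very unequal depth. A single cell held 17.9% and 18.4% of the class's UMIs in the cold libraries, against 6.41% and 3.83% at room temperature. Without the deepest cell of each library, Nr4a1 had 1005 and 582 CPM in cold, against 38.6 and 70.4 CPM at room temperature, and Nr4a3 had 82.4 and 146 CPM in cold, against 3.50 and 8.28 CPM at room temperature. The cell with the most Nr4a1 UMIs held 39.1% and 26.3% of them in cold, and 46.3% and 16.2% at room temperature. Without that cell, Nr4a1 had 611 and 582 CPM in cold, against 38.6 and 63.5 CPM at room temperature. The median cell had 263 and 0 CPM of Nr4a1 in cold and 0 in both room temperature libraries. For Nr4a2 and Nr4a3 the median cell was at 0 in every library. Nr4a1 was found in 14 of 26 and 9 of 19 cold cells, against 12 of 51 and 25 of 91 room temperature cells, and in 45.8% and 33.3% of cold cells, against 7.84% and 7.87% at room temperature, after thinning to 2000 UMIs. The thinned shares overlapped for 2 of the 8 called genes, Sik1, with 16.7% and 5.56% in cold and 7.84% and 6.74% at room temperature, and Egr1, with 75% and 50% in cold and 52.9% and 42.7% at room temperature. Without thinning, the shares were 50% and 57.9% in cold, against 19.6% and 23.1% at room temperature, for Sik1, while they overlapped for Egr1 (76.9% and 63.2% in cold, 72.5% and 82.4% at room temperature) and for Egr2 (53.8% and 36.8% in cold, 47.1% and 38.5% at room temperature). Basal markers (Krt14, Krt5, Krt17, Trp63 and Oxtr) summed to 6070 and 5390 CPM in cold, against 3296 and 3112 CPM at room temperature, with 2 of 5 higher in both cold libraries. Alveolar markers summed to 108 and 292 CPM in cold, against 13.1 and 67.7 CPM at room temperature, with 2 of 7 higher in both cold libraries. The part of these differences in the result was not tested.

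Other genes of the pathway were counted from fixed lists. Of 29 genes of the cAMP machinery (cyclases, protein kinase A subunits, phosphodiesterases, CREB and its coactivators), 8 to 29 were tested per class, and a single call was made in the 11 classes: Creb1 rose in T cells, with 77.5 and 78.9 CPM in cold, against 52.3 and 49.5 CPM at room temperature (0.55 ± 0.13, edgeR quasi-likelihood adjusted p = 0.045). With edgeR, 31 of 220 gene-class pairs of this list had an unadjusted p under 0.05. In T cells these were 10 of 23, beside 2037 of 9921 over all genes tested there. DESeq2 called no gene of this list in any of the 11 classes, among 312 gene-class pairs, 8 of which had an unadjusted p under 0.05. The list's median fold change in T cells was -0.07, beside 0.01 over all genes tested. Of 6 partners of Egr and Nr4a proteins, which are the Egr corepressors Nab1 and Nab2, Egr4 and the retinoid X receptors, edgeR called none of 34 gene-class pairs, 6 of which had an unadjusted p under 0.05, and DESeq2 called none of 55.

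Of 11 other genes known to be induced by cAMP, 4 of 10 tested fell in T cells and none rose, with a list median of -0.36 beside 0.01 over all genes. They were Nfil3 (-1.30), a factor of lymphocyte differentiation, Per1 (-1.19), a clock gene, Areg (-1.11), an EGF family ligand, and Rgs2 (-0.96), an inhibitor of G protein signalling. Rgs2 had 149 and 148 CPM in cold T cells, against 258 and 292 CPM at room temperature, without overlap. In macrophages Areg fell, with 22.6 and 28.6 CPM in cold, against 67.7 and 78.5 CPM at room temperature (-1.54 ± 0.17, edgeR quasi-likelihood adjusted p = 0.0231), and edgeR called none of the other 9 tested, 4 of which had an unadjusted p under 0.05. DESeq2 called 3 of 11 as lower there. In fibroblasts, by contrast, 2 of 10 rose, the phosphatase gene Dusp1 (1.5) and the coregulator gene Cited2 (0.91), and none fell. In NK cells 1 of 9 tested rose, Dusp1 (1.10), and in dendritic cells 1 of 9, Atf3 (1.33), and none fell in either class. In basal cells, tested only with the lowered cell minimum, 6 of 8 rose and none fell, with a list median of 3.04 beside -0.01 over all genes. Dusp1 and Atf3 are also on the list of other immediate early genes, so their rises count in both lists.

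In T and NK cells, other immediate early genes were called mostly as higher. Of 23 on the list, 5 of 19 tested rose in NK cells and none fell, led by Jun with 372 and 311 CPM in cold, against 101 and 60.1 CPM at room temperature (2.13 ± 0.25). In T cells 4 of 22 rose, among them Myc (1.75), Jun (1.68) and Zfp36 (0.84), and 1 fell, Dusp5 (-0.90), whose product inactivates the kinase ERK. In macrophages none of 22 rose and 1 fell, Maff (-1.15 ± 0.16), while DESeq2 called 2 of 23 as higher and 3 as lower. In dendritic cells 4 of 21 rose, Jun (2.36), Klf2 (1.33), Atf3 (1.33) and Fos (1.03), where edgeR called no member. In alveolar progenitors 2 of 20 fell, Dusp5 (-2.52 ± 0.49) and Ier5 (-1.38 ± 0.30), and none rose. In basal cells 18 of 21 rose, with a list median of 3.08 beside -0.01 over all genes, led by Atf3 with 795 and 522 CPM in cold, against 19.7 and 17.9 CPM at room temperature.

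Heat shock chaperones, which are also induced by handling of tissue, moved with temperature in several of the same classes. Of 8 on the list, 2 rose in T cells, 3 in NK cells, 2 in dendritic cells and 6 in fibroblasts, and edgeR called none in alveolar cells (3 of 7 tested had an unadjusted p under 0.05) or macrophages (4 of 8). DESeq2 called 3 of 8 as higher in macrophages and none in alveolar cells. In T cells Hspa1a, a near-identical copy of Hspa1b, had 289 and 248 CPM in cold, against 53.8 and 13.6 CPM at room temperature. The list summed to 5291 and 4463 CPM in cold T cells, against 3911 and 3620 CPM at room temperature, and to 3112 and 3364 CPM in cold alveolar cells, against 5353 and 3669 CPM at room temperature. In basal cells 7 of 8 rose, with sums of 7656 and 7368 CPM in cold, against 2765 and 2849 CPM at room temperature. The part of tissue handling in the members' differences was not tested.

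Across the 44 profiles formed by 11 classes and 4 libraries, the members' own levels were compared. Nr4a2 and Nr4a3 were most alike among the 10 (Pearson r = 0.881 of log2(CPM + 5)), and both were close to Crem (0.760 and 0.741), whereas Egr1 was negatively related to Crem (-0.681). Genes were ranked among 6373 with a mean of at least 20 CPM, leaving out predicted genes (Gm and Rik names), ribosomal and mitochondrial genes and repeated symbols. The 5 most like Nr4a1 were Ppp1r15a (0.906), Csrnp1, Coq10b, Maff and Ccnl1. The 5 most like Egr1 were Fos (0.925), Jun, Wdfy3, Atf3 and Mt1, and the 5 most like Crem were Vps37b (0.937), Dennd4a, Stat4, P2ry10 and Sept6. Profiles of a library share its preparation and those of a class share its cell type, so the coefficients describe these profiles and carry no test.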

How the data were processed

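Single-cell RNA of 2 cold and 2 room temperature libraries was analysed. The authors deposited whole-number UMI counts per gene and cell barcode, and the submitters' processing notes name Cell Ranger 3.0.2, Seurat and the builds mm10 and GRCm38. Cells were kept from 500 genes upward where mitochondrial UMIs made up less than 15%, and doublets (132, 74, 239 and 79 in the libraries) were scored by simulation at 0.8% per 1000 cells and removed. After scaling, 2000 variable genes, 30 principal components and 15 neighbours gave Leiden clusters at resolution 1 (leidenalg 0.10.2, igraph 0.11.9, scanpy 1.11.5, scikit-learn 1.9.0, Python 3.11.15). A cluster was named where at least 3 markers of a type were in at least 10% of its cells and a log2 of 1 above the median cluster. Where more than 1 type passed, the type with the highest mean marker level was taken if it led by a log2 of at least 1. Otherwise the cluster was left as mixed, and the 1057 cells of mixed or unnamed clusters went unused. Named clusters could thus carry markers of another type. A B cell cluster that also passed for 7 T cell markers held 0.453% and 16.6% of cold B cells, against 9.08% and 47.3% at room temperature. These naming limits follow an earlier analysis of the same data. Ccl21a, listed more than once, was dropped from the lymphatic markers.

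UMI sums per class and library were tested with edgeR 4.0.16 in R 4.3.3 (TMM, filterByExpr, quasi-likelihood F-test, two-sided, Benjamini-Hochberg). Differences between classes were an interaction with library as a block. Fits were tested on simulated data. DESeq2 1.42.0, RLE scaling, no count filter, doublets kept, a looser cell filter (200 genes, 25%), Leiden resolution 2, the replicate number as a block and each library left out were alternatives; the largest cluster alone, a crossed block and a 15-cell minimum were added after seeing the data. With 2 libraries in each group, the smallest p of an exact permutation test is 0.333. The members and gene lists were chosen with earlier results of these data known. Fold changes are printed for every tested member in alveolar, hormone-sensing and fibroblast classes, elsewhere for called members, and for up to 4 called genes per list and class with a mean of at least 20 CPM; other members' values were added after they were seen.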

Additional observations from a re-analysis of the deposited data

Results flagged for a closer look

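In class sums, the effect of cold differed between alveolar progenitors and fibroblasts by the interaction test for Nr4a1 (-2.48), Nr4a2 (-2.68) and Nr4a3 (-2.86, all log2), and between macrophages and fibroblasts for Nr4a3 (-2.15). Each of these was called with all 4 libraries and with each library left out but cold replicate 1. The mix of clusters in the fibroblast sums differed between temperatures, and its part in these differences was not tested.

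Basal/myoepithelial cells lay outside the main comparison for their number. There 9 members had higher levels in both cold libraries than in either room temperature library, as had 19.3% of the 6225 genes tested. For the 8 given here, 95% exact Poisson intervals of the summed UMIs, which cover counting error only, were also apart between temperatures; the other was Crem. Mean levels in CPM were 755 in cold, against 70.4 at room temperature, for Nr4a1, 126 in cold, against 28.6 at room temperature, for Nr4a2, and 141 in cold, against 7.26 at room temperature, for Nr4a3. Egr1 averaged 2357 CPM in cold, against 386 CPM at room temperature, Egr2 330 CPM in cold, against 76.2 CPM at room temperature, and Egr3 141 CPM in cold, against 34.3 CPM at room temperature. Sik1 averaged 107 CPM in cold, against 23.0 CPM at room temperature, and Pde4b 292 CPM in cold, against 35.7 CPM at room temperature.

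Neutrophils, also outside the main comparison, had a mean Egr1 level of 1315 CPM in cold, against 468 CPM at room temperature, from 97 and 51 UMIs in cold and 10 and 13 UMIs at room temperature, without a test. The class held 38 and 22 cells in cold and 18 and 14 at room temperature. Egr1 was the 1 member higher in both cold libraries, as were 13.3% of 4430 genes with a mean of at least 20 CPM. By contrast, 3 members were lower in both cold libraries, as were 21.3% of those genes.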

How the results depend on the processing

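Of 97 member-class pairs, 12 fell and 1 rose; without the count filter 34 fell and 13 rose, with DESeq2 17 fell and 3 rose, with doublets kept 11 fell and 0 rose, in the largest cluster alone 18 fell and 3 rose, and with the 15-cell minimum 12 fell and 9 rose. Leaving out 1 library gave 15 to 20 falls and 2 to 11 rises. With the replicate number as a block, 22 fell and 6 rose; same-numbered libraries deviated together with correlations of -0.21 to 0.36 over classes, and no label ties the numbers to a shared day, so they are not taken as pairs. With the numbers crossed in the alveolar and hormone-sensing classes 16 fell. Members called as differing from fibroblasts numbered 3 for alveolar cells (0 to 4 with 1 library left out), 0 for hormone-sensing cells (0 to 2, and 1 without the count filter) and 1 for macrophages (0 to 4, and 4 without the filter). In the largest cluster alone the sign turned, with no call in the class, for fibroblast Egr1 (-0.054), Nr4a1 (-0.23), Nr4a3 (-0.61) and Sik1 (-0.14) and for hormone-sensing Egr1 (0.35) and Egr2 (0.83); the cause was not tested. With 1 library left out, uncalled values ranged over 0 for fibroblast Nr4a2 (-1.17 to 0.010), alveolar Egr1 (-0.64 to 0.063), Pde4b (-0.83 to 0.092) and Sik1 (-0.35 to 0.053, and 0.03 without room temperature replicate 1), and hormone-sensing Egr1 (-0.82 to 0.13), Egr2 (-1.17 to 0.36) and Pde4d (-0.32 to 0.055). The looser filter, Leiden resolution 2 and the largest cluster each left 10 of the 11 classes. With the looser filter, basal/myoepithelial and Schwann cells reached 20 cells in every library, but they were not tested in that alternative. Alveolar Nr4a2 and Nr4a3 rested on under 10 UMIs in each cold library.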
